A study of Mus musculus with 36 samples.

Results

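The Hippo effector and target genes examined here are 10 mouse genes, out of 22367 protein-coding genes on chromosomes 1 to 19, X and Y: the coactivators Yap1 and Wwtr1, the DNA-binding factors Tead1, Tead2, Tead3 and Tead4, and the target genes Ctgf, Cyr61, Ankrd1 and Amotl2. A peak was counted for a gene when its midpoint lay within 50 kb of the gene body on either side (mm9, GENCODE vM1), and this was done in each of 9 peak lists. The lists came from chromatin immunoprecipitation followed by sequencing (ChIP-seq), which maps the DNA bound by a protein. The nucleosome remodelling and deacetylase (NuRD) complex was followed through its subunits MBD3 and CHD4, profiled in wild-type R1 ESCs (embryonic stem cells) grown in Serum/LIF +2i, with 2 lists each, and in NPCs (neural progenitor cells) derived from R1 ESCs and kept in NPC medium, with 1 list each. In ESCs grown as above, SIN3A, the scaffold of a separate histone deacetylase complex, was profiled in wild-type cells without and with spike-in chromatin, and ZFP296, a zinc finger protein, in ZFP296-BAC R1 ESCs with a GFP antibody.

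In the Hippo pathway, a cascade of kinases phosphorylates YAP1 and its paralogue TAZ, the product of Wwtr1, and keeps them out of the nucleus. When the cascade is inactive, YAP1 and TAZ enter the nucleus and bind TEAD proteins, which recognise the DNA sequence GGAATG and switch on target genes such as Ctgf, Cyr61 and Ankrd1. The pathway controls organ size and cell growth, and in the early embryo it takes part in the choice between the trophectoderm, for which Tead4 is needed, and the inner cell mass, from which ESCs are derived.

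The lists held 2344, 7551 and 2304 peaks for MBD3 in ESC replicate 1, ESC replicate 2 and NPCs, 11712, 29974 and 20234 for CHD4 in the same order, 3102 for ZFP296, and 16170 and 11422 for SIN3A without and with spike-in. Read depth is unknown from these lists, and the value that each peak carries is the authors' own −log10 value, here called the peak value, which ranks peaks within a list only. In ESC CHD4 replicate 2, labelled wild type, 29974 of 29974 peak names mention a Zfp219 BAC. The labels give ZFP296 a BAC line, and the methods instead a KH2 ESC line with a GFP-ZFP296 construct. The SIN3A thresholds differed, at 0.0001 without and 0.001 with spike-in. The labels do not say whether replicates were separate cultures. Peak lists hold no expression, so the cell types were not checked against marker genes. With 2 ESC lists against 1 NPC list there are 3 arrangements and the smallest p of an exact permutation test is 0.333, so no difference between ESCs and NPCs could be tested, and the values are described beside those of all genes.

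The sequences under the 7 NPC MBD3 peaks near the genes are shown first, because most of them hold the string that TEAD proteins recognise. Each is the central 200 bp of a peak, on the plus strand of mm9, with matches on either strand in capitals. Capitals mark the TEAD string GGAATG or its reverse complement, and likewise the string TGACTCA, which is recognised by AP-1 (dimers of FOS and JUN proteins).
Yap1, promoter (chr9:8004637-8004836): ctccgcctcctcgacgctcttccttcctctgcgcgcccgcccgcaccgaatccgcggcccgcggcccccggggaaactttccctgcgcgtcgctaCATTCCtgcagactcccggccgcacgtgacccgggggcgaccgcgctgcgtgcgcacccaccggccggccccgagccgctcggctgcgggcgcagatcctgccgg
Wwtr1, intron (chr3:57305723-57305922): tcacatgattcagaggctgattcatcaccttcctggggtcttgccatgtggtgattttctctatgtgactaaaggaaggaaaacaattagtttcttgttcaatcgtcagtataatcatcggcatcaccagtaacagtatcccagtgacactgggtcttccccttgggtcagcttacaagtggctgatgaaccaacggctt
Tead1, 15.8 kb upstream (chr7:119806888-119807087): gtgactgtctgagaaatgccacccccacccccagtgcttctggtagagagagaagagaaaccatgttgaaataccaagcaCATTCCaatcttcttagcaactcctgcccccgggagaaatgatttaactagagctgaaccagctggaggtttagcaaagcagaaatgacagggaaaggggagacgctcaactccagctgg
Tead4, intron (chr6:128246622-128246821): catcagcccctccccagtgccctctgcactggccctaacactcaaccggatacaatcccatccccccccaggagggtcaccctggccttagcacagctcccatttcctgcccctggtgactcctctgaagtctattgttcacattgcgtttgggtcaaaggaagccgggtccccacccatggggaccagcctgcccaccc
Ankrd1, promoter (chr19:36194388-36194587): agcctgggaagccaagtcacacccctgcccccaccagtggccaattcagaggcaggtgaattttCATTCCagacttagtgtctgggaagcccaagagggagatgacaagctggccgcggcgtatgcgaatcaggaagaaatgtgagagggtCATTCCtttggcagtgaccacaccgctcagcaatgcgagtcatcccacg
Ankrd1, 9.60 kb upstream (chr19:36203830-36204029): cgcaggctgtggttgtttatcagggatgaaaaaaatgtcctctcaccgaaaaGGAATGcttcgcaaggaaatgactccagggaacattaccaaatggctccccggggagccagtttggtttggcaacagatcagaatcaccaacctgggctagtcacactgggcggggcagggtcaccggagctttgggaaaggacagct
Amotl2, 43.1 kb upstream (chr9:102575775-102575974): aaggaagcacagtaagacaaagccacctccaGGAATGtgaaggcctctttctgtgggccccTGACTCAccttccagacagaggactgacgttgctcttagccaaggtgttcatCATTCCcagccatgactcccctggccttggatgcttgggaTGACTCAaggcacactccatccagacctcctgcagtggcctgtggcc
A TEAD string stood in 5 of these 7 stretches (71.4%, 95% exact interval 29.0% to 96.3%), against 408 of 2304 peaks of the whole list (17.7%). The Ankrd1 promoter and the Amotl2 peak each held 2. The AP-1 string, found in 47.5% of all NPC MBD3 peaks, was present in 1 of the 7, the Amotl2 peak, which also held 2 copies. The Wwtr1 and Tead4 stretches held neither string. This set was placed first after its strings had been counted, and 2 of the 7 peaks are at Ankrd1. The interval covers counting error only, and the difference in TEAD share was not tested.

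All 7 NPC MBD3 peaks overlapped an NPC CHD4 peak, compared with 84.9% of the whole NPC MBD3 list. The peaks lay at 6 of the 10 genes, namely Yap1, Wwtr1, Tead1, Tead4, Ankrd1 (2 peaks) and Amotl2, whereas 15.7% of all genes had an NPC MBD3 peak in the same window. In ESC replicate 1, 7 MBD3 peaks lay at 4 genes, the 4 Tead genes (15.8% of all genes had a peak), and in ESC replicate 2, 18 peaks lay at 6 genes, the Tead genes, Ctgf and Amotl2 (33.1%). ESC MBD3 sites, defined as peaks of the shorter list that overlap the longer list by at least 1 bp, numbered 4 and lay at Tead1, Tead2 and Tead4 (10.1% of all genes). Yap1, Wwtr1 and Ankrd1 had more MBD3 peaks in NPCs than in either ESC list (3 of 10, 7.94% of all genes), each from 0 in both ESC lists. The 4 Tead genes had fewer in NPCs than in either ESC list (4 of 10, 10.3%). With MBD3 lists of equal length, Tead1 (2, 1 and 1) and Tead3 (1, 0 and 0) tied with an ESC list, and Tead2 (1, 1 and 0) and Tead4 (3, 2 and 1) remained lower. With a single NPC list this is a description of these lists.

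**Figure D1:**
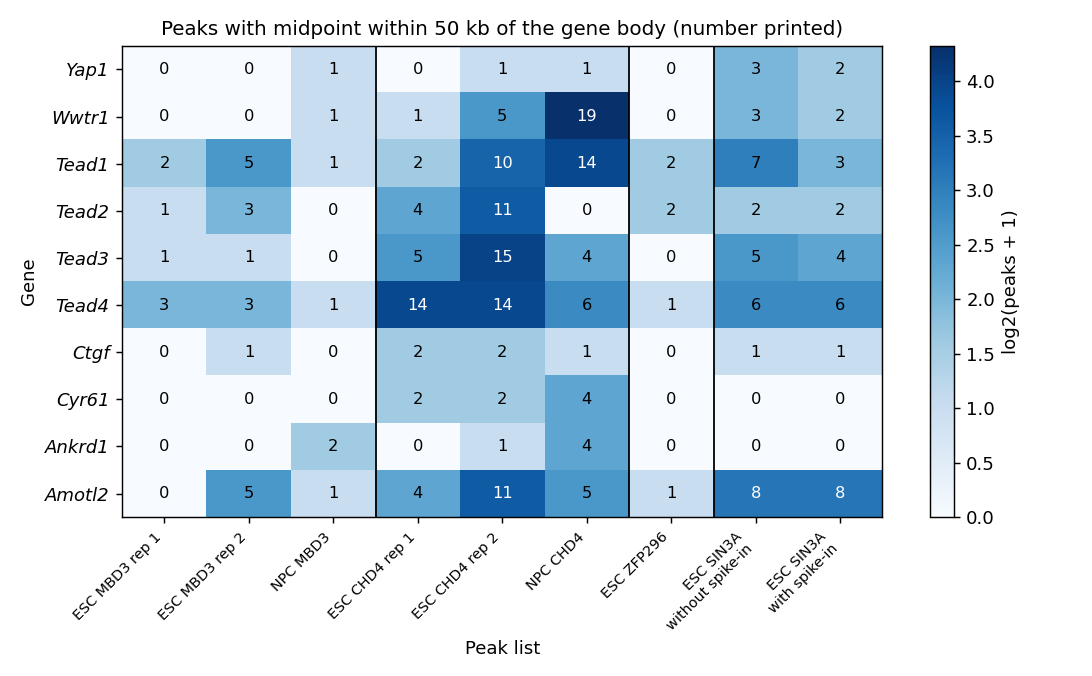
Number of peaks with midpoint within 50 kb of each gene body (rows) in each of the 9 lists (columns), with shading on a log2(peaks + 1) scale and vertical lines between factors. Wwtr1 has 19 CHD4 peaks in NPCs against 1 and 5 in ESCs, and Tead2 has 0 against 4 and 11.

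CHD4, the remodelling ATPase of NuRD, gave many more peaks. The 10 genes together held 34 CHD4 peaks in ESC replicate 1, 72 in ESC replicate 2 and 58 in NPCs. This is 3.40, 7.20 and 5.80 peaks per gene, against 1.34, 3.33 and 1.76 over all genes. Per 100 kb of window, which allows for gene length, the genes held 2.17, 4.60 and 3.71 CHD4 peaks against 0.919, 2.29 and 1.21 over all genes. At least 1 peak was found at 8 genes in ESC replicate 1 (43% of all genes), at 10 in ESC replicate 2 (67.7%) and at 9 in NPCs (57.9%), where only Tead2 had none. ESC CHD4 sites present in both replicates numbered 23 at 8 genes (36.8% of all genes). Wwtr1, Tead1, Cyr61 and Ankrd1 had more CHD4 peaks in NPCs than in either ESC list (4 of 10, 19.9% of all genes). Tead2, Tead3, Tead4 and Ctgf had fewer than in either ESC list (4 of 10, 20.6% of all genes). Yap1 and Amotl2 lay within the range of the ESC lists, ties included. This split of 4 above and 4 below depended on the lists. With the CHD4 lists cut to equal length, 5 genes were above both ESC lists (Yap1, Wwtr1, Tead1, Cyr61 and Ankrd1) and 2 below (Tead2 and Tead4). With peak values of at least 10, 4 were above (Yap1, Wwtr1, Cyr61 and Ankrd1) and 1, Tead4, below. The cut at 10 is not alike across lists, because values rank peaks within a list only. Median values were 8.05 and 8.63 in ESC replicates 1 and 2 and 9.06 in NPCs.

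**Figure D2:**
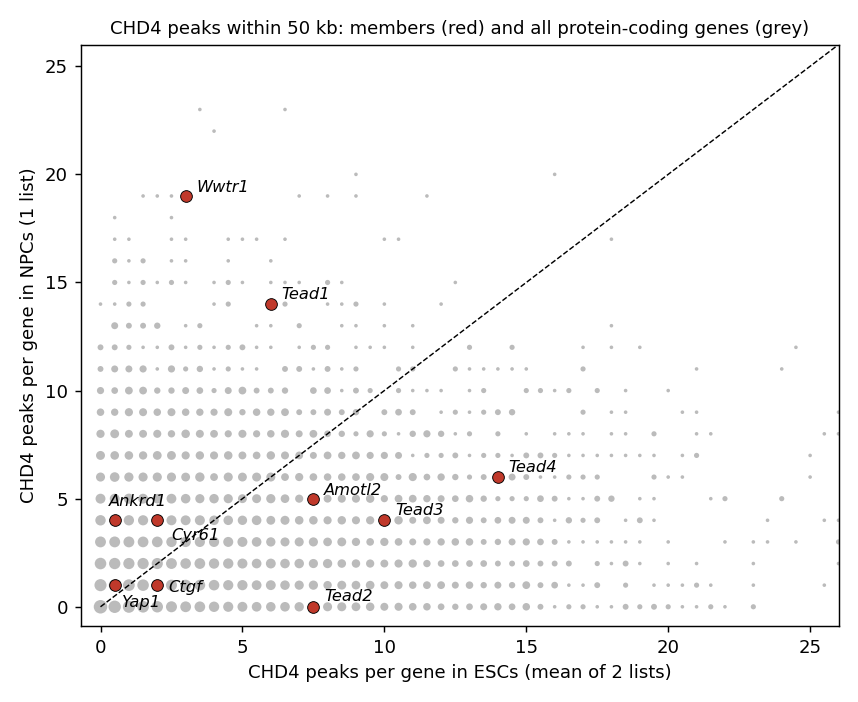
CHD4 peaks within 50 kb of each gene in ESCs (horizontal axis, mean of 2 lists) and NPCs (vertical axis, 1 list), with the 10 genes in red, all protein-coding genes in grey (larger dots stand for more genes) and a dashed line where both are equal. Axes stop at 26 peaks, beyond which lie 27 genes. Wwtr1 and Tead1 stand above the line and Tead2, Tead3 and Tead4 below it.

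Yap1, which encodes the coactivator for which the pathway is best known, had a single region with MBD3 or CHD4, at its promoter (chr9:8004489-8004993). CHD4 had 0 peaks in ESC replicate 1, 1 in ESC replicate 2 with a value of 7.14, and 1 in NPCs with a value of 11.7. MBD3 had 0 peaks in both ESC lists and 1 in NPCs, with a value of 13.4, centred 0.140 kb upstream of the start. SIN3A had 3 and 2 peaks, of which 1 in each preparation lay in this same region. The promoter had CHD4 in NPCs and in 1 of 2 ESC lists and MBD3 in NPCs alone, and its TEAD string is the one printed above.

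Wwtr1, which encodes TAZ, had the most NPC CHD4 peaks of the 10 genes. CHD4 had 1 peak in ESC replicate 1, 5 in ESC replicate 2 and 19 in NPCs. Of all 22367 genes, 19 (0.0849%) had at least as many NPC CHD4 peaks, and among the genes of chromosome 3 the share was 0.189%. The Wwtr1 window spanned 220 kb, with 8.63 NPC CHD4 peaks per 100 kb. Shares of genes reaching a count, here and below, are not adjusted for window width. Of the 19 peaks, 12 lay in introns, 4 downstream and 3 upstream of the gene, with values from 4.08 to 21.95. A CHD4 peak of either ESC list was overlapped by 0 of the 19, against 15.6% of the whole NPC CHD4 list, so most NPC peaks anywhere lacked such an overlap. The ESC peaks lay elsewhere, from 7.85 kb upstream of the start to an intron 105 kb into the gene, and the replicates overlapped 7.79 kb upstream, with values of 12.7 and 7.14. The highest ESC value, 14.6, was in an intron, and a peak of replicate 2 lay 0.708 kb upstream of the start (7.25). The highest NPC peak, at 21.95, was 36.7 kb upstream (chr3:57416436-57416688), where the nearest gene is Commd2. With peaks counted only for their nearest gene, Wwtr1 kept 13 NPC peaks against 1 and 5 in ESCs. With the 3 CHD4 lists cut to equal length by peak value, it had 1, 2 and 11. The single NPC MBD3 peak (value 5.45) lay 73.9 kb into the gene on an NPC CHD4 peak of value 15.5.

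Wwtr1 and Cyr61 are on chromosome 3, which held 1.78 times its share of genes among NPC CHD4 peaks and 2.10 times among NPC MBD3 peaks. In the ESC lists of MBD3 and CHD4 this ratio was 0.831 to 1.02. For chromosome 6, which carries Tead4, it was 1.46 and 1.76 in the NPC lists, 1.65 and 1.68 in replicate 1 of ESC CHD4 and MBD3, and 1.07 and 0.745 in replicate 2. For chromosome 19, which carries Ankrd1, it was 1.31 and 1.76 in NPCs and 0.790 to 0.897 in ESCs. The part of these shares in the counts of the 4 genes was not tested.

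**Figure D3:**
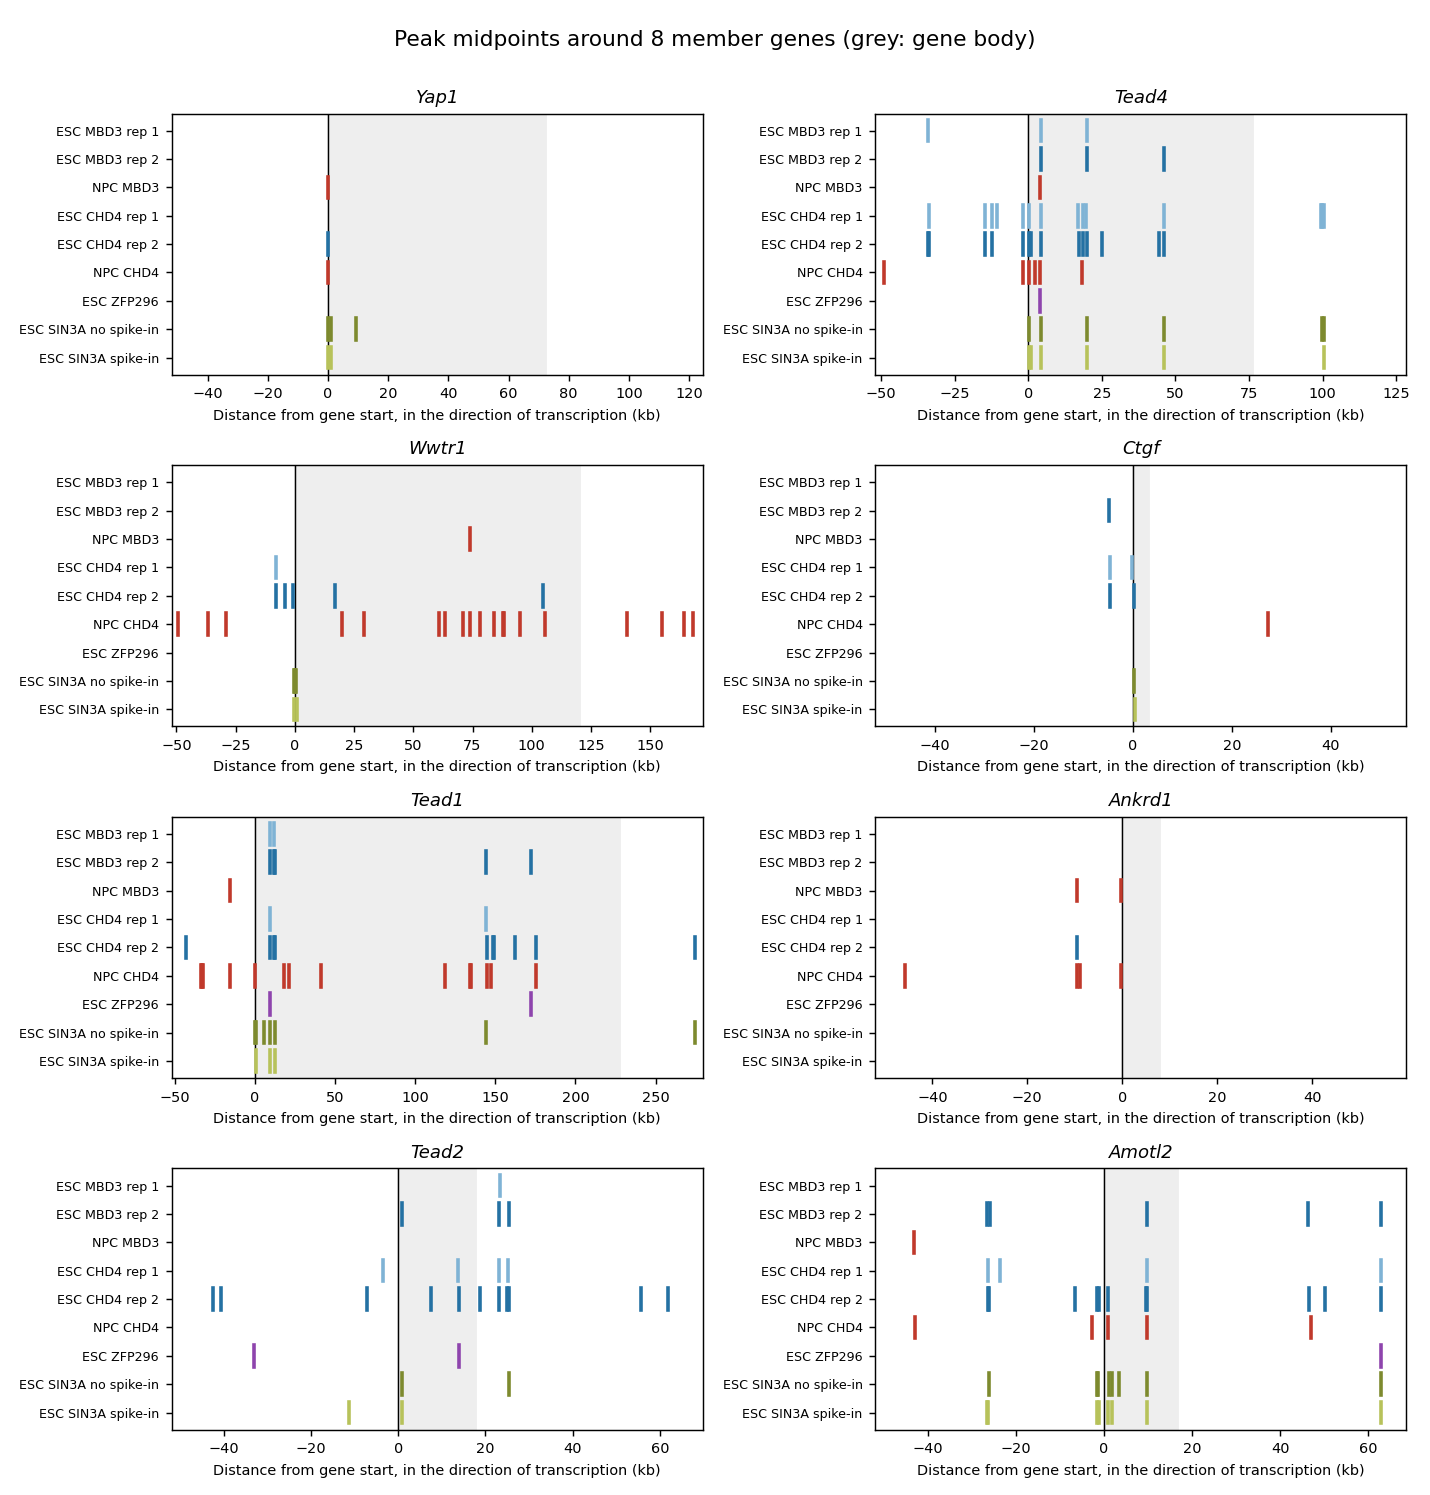
Midpoints of peaks (ticks) in each of the 9 lists around 8 of the genes, by distance in kb from the gene start in the direction of transcription, with the gene body in grey. NPC CHD4 peaks spread along Wwtr1 and Tead1, are absent around Tead2, and share a position with all other lists in the first part of Tead4.

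Among the TEAD factors, Tead1 had more CHD4 peaks in the NPC list than in either ESC list, with 2 in ESC replicate 1, 10 in ESC replicate 2 and 14 in NPCs. A count of 14 or more was reached by 0.358% of all genes, without adjustment for window width. The Tead1 window, 327 kb, was the widest of the 10. Per 100 kb it held 4.27 NPC CHD4 peaks, near the 4.28 of Amotl2, whose count of 5 was reached by 11.7% of all genes. MBD3 had 2, 5 and 1 peaks, fewest in NPCs. A region in an intron (chr7:119831973-119832551) held a peak in all 7 ESC lists and in no NPC list. Its values were 11.3 and 13.9 for MBD3, 13.2 and 13.6 for CHD4, 13.6 for ZFP296, and 17.4 and 25.2 for SIN3A. Another intronic region (chr7:119967069-119967542) held CHD4 in both ESC lists (9.30 and 17.3) and in NPCs (10.8), and carried both a SOX2 string and an octamer. The central 200 bp of its NPC CHD4 peak and of its ESC CHD4 replicate 2 peak also held an AP-1 string. The single NPC MBD3 peak, with a value of 6.20, lay 15.8 kb upstream. The highest NPC CHD4 peak, 33.9 kb upstream, had a value of 14.4, and the NPC CHD4 peak nearest the first start, 0.304 kb upstream, had a value of 3.20. At an internal start, MBD3 had values of 11.7 in ESC replicate 1 and 7.19 and 6.45 in replicate 2, and CHD4 had 9.83 and 13.4 in replicate 2. Merged over lists, MBD3 or CHD4 lay in both cell types in 2 Tead1 regions, in NPCs only in 12 and in ESCs only in 9. All but 1 of the 12 held CHD4 without MBD3. ESCs had more lists than NPCs, and no share over all genes was computed for such regions.

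Tead2, the TEAD gene known for high expression in the earliest embryo, had the opposite counts. CHD4 had 4 peaks in ESC replicate 1, 11 in ESC replicate 2 and 0 in NPCs, and MBD3 had 1, 3 and 0. The window is shared with 6 other genes, and when each peak was counted for its nearest gene alone the CHD4 numbers were 1, 2 and 0. The highest Tead2 peak of ESC CHD4 replicate 2, with a value of 23.5, lay 5.31 kb downstream of the gene and nearest to Cd37. Both ESC MBD3 lists and ESC CHD4 replicate 1 also had a peak there. The central 200 bp of the replicate 2 peak held a SOX2 string (CCATTGT or its reverse complement, in capitals), and no TEAD or AP-1 string.
Tead2, 5.31 kb downstream (chr7:52494213-52494412): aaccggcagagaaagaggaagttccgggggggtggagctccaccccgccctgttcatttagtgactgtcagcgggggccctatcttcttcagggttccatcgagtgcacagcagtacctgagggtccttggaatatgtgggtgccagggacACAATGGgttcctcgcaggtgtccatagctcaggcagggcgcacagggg
A window of 100 kb held 2 NPC CHD4 peaks, against 8 and 18 in ESCs.

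Tead3, a TEAD gene known from the placenta, had 5, 15 and 4 CHD4 peaks and 1, 1 and 0 MBD3 peaks in ESC replicate 1, ESC replicate 2 and NPCs. The NPC count was below both ESC counts by 1 and 11 peaks, and with lists of equal length the counts were 5, 4 and 4. Its window holds 5 other genes, and no NPC CHD4 peak had Tead3 as its nearest gene. The highest NPC peak, with a value of 22.1, lay 20.7 kb downstream (chr17:28447786-28448082), where both ESC lists also had a peak, with values of 11.2 and 17.7. The highest ESC value, 25.5 in replicate 1, was 24.7 kb upstream, and replicate 2 had 10.98 there. At the promoter, 0.841 kb upstream and nearest to Tulp1, the NPC value was 11.6, and ESC replicate 1 had 8.50 at the same place. ESC replicate 2 had CHD4 values of 9.46 and 4.89 in exons, 0.113 and 0.025 kb from a start of Tead3.

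Tead4 had 14, 14 and 6 CHD4 peaks and 3, 3 and 1 MBD3 peaks in the same order. The CHD4 count of 14 was reached by 0.666% of all genes and 1.71% of those of chromosome 6 in ESC replicate 1, and by 3.72% and 2.99% in replicate 2. The NPC count of 6 was reached by 7.77% of all genes and 14.4% of those of chromosome 6. An intronic region (chr6:128246419-128246985) was the only region near the 10 genes with a peak in all 9 lists. Its MBD3 values were 20.6 and 25.02 in ESCs and 29.8 in NPCs, the last ranking 25 among 2304 peaks. Its CHD4 values were 13.2 and 36.9 in ESCs and 30.1 in NPCs, where it ranked 243. ZFP296 had a value of 9.14 there. Of the 6 NPC CHD4 peaks near Tead4, 4 overlapped an ESC CHD4 peak, among them 1 in an exon near the start (9.73) and 1 located 1.93 kb upstream, where ESC values were 17.0 and 25.4. The NPC exon peak held 3 TEAD strings, and ESC values there were 5.08 and 10.8. A further intronic region (chr6:128230697-128231483) had MBD3 (17.0 and 8.79) and CHD4 (29.0 and 24.0) in both ESC replicates and no NPC peak.

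The targets differed among themselves. Ctgf, which encodes the matricellular protein CCN2, is a widely used readout of YAP1 activity. CHD4 had 2 peaks in each ESC replicate and 1 in NPCs, and MBD3 had 0, 1 and 0. A region upstream (chr10:24310377-24310732) carried CHD4 in both ESC lists (9.24 and 11.8) and MBD3 in ESC replicate 2 (14.5). The NPC peak, with a value of 13.5, was 24.0 kb downstream and nearest to Enpp1. No NPC list had a peak within 10 kb of Ctgf.

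Cyr61, which encodes the related protein CCN1, had 2, 2 and 4 CHD4 peaks and no MBD3, ZFP296 or SIN3A peak in any list. In NPCs the values were 18.2, 12.9, 10.3 and 8.43. The last 2, downstream of the gene and in an exon, overlapped an ESC CHD4 peak each, and the first 2 lay 26.4 and 35.3 kb upstream without one. In ESCs both replicates had a peak 1.6 kb upstream of the start (8.68 and 15.0), which was absent from the NPC list. The highest NPC peak and this ESC peak are printed side by side, with the TEAD, AP-1, SOX2 and octamer (ATGCAAAT) strings in capitals.
Cyr61 in NPCs, 26.4 kb upstream (chr3:145339243-145339442): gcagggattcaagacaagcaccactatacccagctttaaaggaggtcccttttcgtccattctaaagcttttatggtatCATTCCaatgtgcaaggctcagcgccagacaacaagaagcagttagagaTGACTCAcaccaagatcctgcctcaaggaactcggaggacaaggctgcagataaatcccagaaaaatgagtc
Cyr61 in ESCs, 1.58 kb upstream (chr3:145314431-145314630): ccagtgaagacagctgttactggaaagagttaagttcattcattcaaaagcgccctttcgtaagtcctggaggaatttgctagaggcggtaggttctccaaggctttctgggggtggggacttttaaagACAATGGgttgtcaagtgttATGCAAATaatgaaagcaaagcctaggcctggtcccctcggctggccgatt
The NPC stretch held 1 TEAD string and 1 AP-1 string. The ESC stretch held 1 SOX2 string and 1 octamer and neither of the others. These 2 stretches do not stand for all Cyr61 peaks of a cell type. The downstream peak of ESC CHD4 replicate 1 (chr3:145295932-145296113) also held 1 TEAD string and 1 AP-1 string. So did the NPC peak that it overlapped.

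Ankrd1, which encodes a muscle-enriched ankyrin repeat protein, had 0, 1 and 4 CHD4 peaks and 0, 0 and 2 MBD3 peaks. An NPC CHD4 peak 8.95 kb upstream (chr19:36203002-36203570) had a value of 41.1 and ranked 78 among 20234, the highest 0.390% of the list. It had the highest value of the NPC CHD4 peaks near the 10 genes. The neighbouring region 9.57 kb upstream held MBD3 (12.05) and CHD4 (7.62) in NPCs and CHD4 in ESC replicate 2 (11.4), the only ESC peak near the gene. At the promoter, NPC MBD3 (6.19) and NPC CHD4 (12.6) had a peak each, over the stretch with 2 TEAD strings printed above, and no ESC list of any factor had one. The count of 4 NPC CHD4 peaks was reached by 17.3% of all genes, and by 38.8% of the genes of chromosome 19.

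Amotl2, a target that encodes an angiomotin family protein which binds YAP1 and restrains it, had 4, 11 and 5 CHD4 peaks and 0, 5 and 1 MBD3 peaks. The NPC counts lay between those of the ESC lists. At its start, CHD4 had a value of 10.7 in NPCs and 6.94 in ESC replicate 2. An intronic region (chr9:102628273-102629000) held CHD4 in both ESC lists, with a highest value of 30.1, and in NPCs (17.6). The NPC MBD3 peak 43.1 kb upstream (9.11) lay on an NPC CHD4 peak (16.5), nearest to Anapc13, and no ESC list had a peak there. A region 46.2 kb downstream (chr9:102681757-102682199) held ZFP296 (21.7), MBD3 in ESC replicate 2 (9.96), CHD4 in both ESC lists (6.39 and 26.8) and SIN3A in both preparations, and no NPC peak. It carried 3 TEAD strings and is shown because it was the only ZFP296 peak near these genes with a TEAD string. That is 1 of 6 peaks (16.7%), near the 17% of the whole ZFP296 list.
Amotl2, 46.2 kb downstream (chr9:102681840-102682039): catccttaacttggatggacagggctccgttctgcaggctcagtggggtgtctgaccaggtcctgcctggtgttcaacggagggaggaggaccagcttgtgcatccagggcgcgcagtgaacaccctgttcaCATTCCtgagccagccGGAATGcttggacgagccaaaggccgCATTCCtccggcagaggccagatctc

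ZFP296 had 6 peaks at 4 of the 10 genes, namely 2 each at Tead1 and Tead2 and 1 each at Tead4 and Amotl2 (21.9% of all genes had a peak). The highest were 21.7 at Amotl2, 16.3 and 13.6 at Tead1 and 10.1 in an intron of Tead2. Of the 6, 4 overlapped an ESC MBD3 peak (66.7%, 52.2% in the whole list), 4 an ESC CHD4 peak (66.7%, 69.4%) and 3 a SIN3A peak (50%, 43.3%). Yap1, Wwtr1, Tead3, Ctgf, Cyr61 and Ankrd1 had none. SIN3A had 35 peaks without and 28 with spike-in, at 8 genes in each list (65.1% and 59.2% of all genes), and Cyr61 and Ankrd1 had none in either. Peaks found in both preparations numbered 21, at 7 genes (53.5% of all genes). Amotl2 had 8 in each list, and the highest SIN3A values, 27.7 and 25.2, were over the Tead4 start without spike-in and in the Tead1 intron with it.

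Promoters were compared by counting genes with a peak within 1 kb of any annotated start site of the gene. The number of starts ranged from 1 at Cyr61 and Ankrd1 to 11 at Tead1, 12 at Tead2 and 13 at Amotl2. More starts give more bases in which a peak can count, and the shares are not adjusted for this. For NPC CHD4 these were Yap1, Tead1, Tead3, Tead4, Cyr61, Ankrd1 and Amotl2, 7 of 10 against 13.1% of all genes. For ESC CHD4 they were 3 in replicate 1 (8.49% of all genes), namely Tead3, Tead4 and Ctgf, and 8 in replicate 2 (22.8%), all but Tead2 and Ankrd1. The NPC CHD4 peak counted for Tead1 had a value of 3.20, near the list minimum of 3.02. The peaks counted for Tead3 in NPCs and in ESC replicate 1 were nearest to Tulp1. MBD3 was within 1 kb of a start at Tead1 in ESC replicate 1 (1 of 10, 2.36% of all genes), at Tead1 and Tead2 in replicate 2 (2 of 10, 3.43%) and at Yap1 and Ankrd1 in NPCs (2 of 10, 2.49%). No ZFP296 peak was (0 of 10, 2.88%). SIN3A was at 8 promoters in each preparation (41.2% and 33.8% of all genes), all but Cyr61 and Ankrd1. Among the 10 genes, Ankrd1 was thus the only promoter with MBD3 or CHD4 in NPCs and no peak of any ESC list.

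Positions were compared by overlap. Of the 58 NPC CHD4 peaks, 14 overlapped a CHD4 peak of either ESC list (24.1%), against 15.6% of the whole NPC list. Of the 23 ESC CHD4 sites, 7 overlapped an NPC CHD4 peak (30.4%), against 13.1% of all such sites. Between the ESC replicates, 23 of 34 CHD4 peaks of replicate 1 overlapped replicate 2 (67.6%, 70.4% in the whole list). For MBD3, 1 of 7 NPC peaks overlapped an ESC MBD3 peak (14.3%, 10.1% in the whole list), the one in the Tead4 intron. All peaks of the 9 lists merged into 140 regions near the 10 genes. MBD3 or CHD4 was present in both cell types in 14 of them, in ESCs only in 68 and in NPCs only in 44. The other 14 held SIN3A or ZFP296 alone. Each of MBD3 and CHD4 had 2 ESC lists and 1 NPC list, which gives ESC-only regions more peaks to come from. Regions were not merged over all genes, so no share of all genes stands beside these counts. Of the NPC CHD4 peaks, 7 of 58 overlapped an NPC MBD3 peak (12.1%, 9.76% in the whole list). Wwtr1 contributed 19 of the 44 NPC regions and no region of both cell types, Tead2 contributed 14 ESC regions and no NPC region, and Tead4 contributed 4 regions of both.

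**Figure D4:**
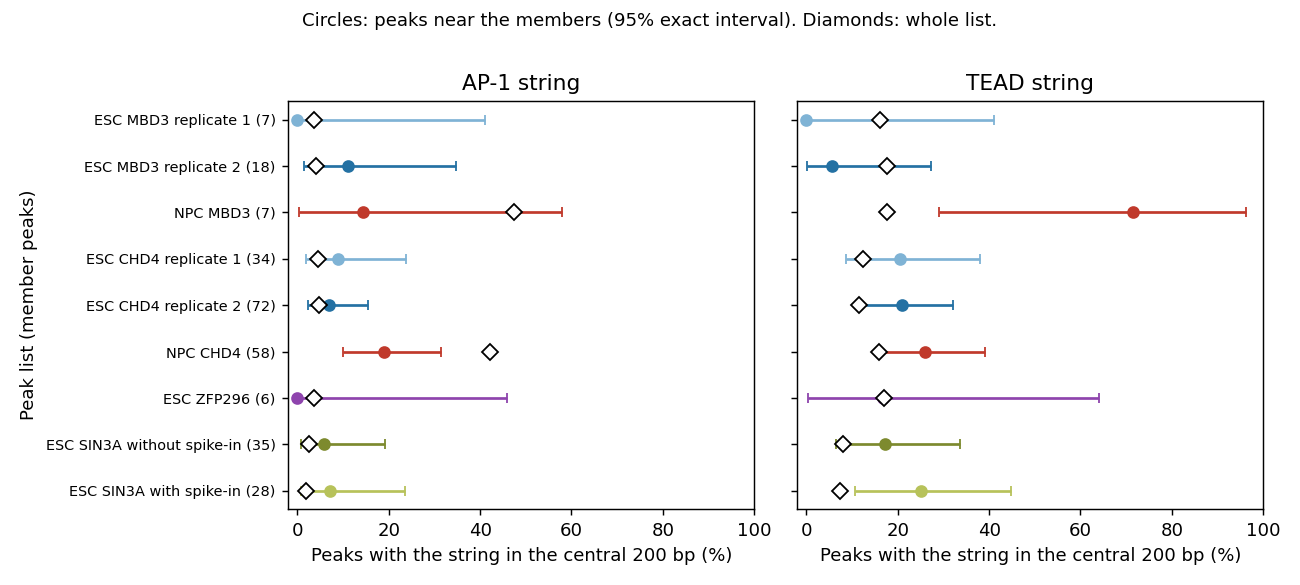
Share of peaks with the AP-1 string (left) or the TEAD string (right) in the central 200 bp, for peaks near the 10 genes (circles, bars are 95% exact intervals, number of peaks in parentheses) and for the whole list (diamonds). NPC CHD4 peaks near the genes hold AP-1 at 18.97% against 42.2% in the whole list, and NPC MBD3 peaks hold TEAD at 71.4% against 17.7%. Neither difference was tested.

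The middle 200 bp of each peak was read in both orientations for every string separately, so that matches of different strings may share letters. In the stretches printed here none did. The AP-1 string was found in 11 of 58 NPC CHD4 peaks near the genes (18.97%, 95% exact interval 9.87% to 31.4%), against 42.2% of the whole NPC CHD4 list. Among NPC CHD4 peaks without an ESC CHD4 peak the shares were 9 of 44 and 47.6%. Wwtr1 held 5 of the 11 AP-1 peaks, Tead1 held 3, Cyr61 held 2 and Amotl2 held 1, and the 4 CHD4 peaks of Ankrd1 held none. The TEAD string was found in 15 of 58 NPC CHD4 peaks (25.9%, interval 15.3% to 39.0%), against 15.9% of the whole list, of which 5 were at Tead1 and 3 at Cyr61. In ESCs it was found in 7 of 34 and 15 of 72 CHD4 peaks (20.6% and 20.8%), against 12.3% and 11.4% of the whole lists, and in 1 of 18 MBD3 peaks of replicate 2 and 0 of 7 of replicate 1, against 17.7% and 16.2%. SIN3A peaks held it at 17.1% without and 25% with spike-in, against 8.02% and 7.26%. Intervals cover counting error only, and peaks of one gene or of several lists may cover the same DNA, as at the start of Tead4 and the distal Amotl2 region, so they are not independent. A string is not a bound site.

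Other genes of the pathway were counted from lists of known members. Of 24 upstream genes (kinases, adaptors and junction proteins), 15, 19 and 23 had a CHD4 peak in ESC replicate 1, ESC replicate 2 and NPCs, against 43%, 67.7% and 57.9% of all genes. More NPC CHD4 peaks than in either ESC list were found at 9 (19.9% of all genes) and fewer at 8 (20.6%). The most NPC peaks were at Wwc2, a KIBRA family gene (9, 19 and 8), and at Amotl1, an angiomotin gene (0, 2 and 5). Of 4 vestigial-like TEAD cofactor genes, 1 had more and 0 had fewer, with Vgll4 at 7, 5 and 6 peaks and Vgll2 at 0, 0 and 1. Of 22 other YAP1 targets, 12, 18 and 20 had a CHD4 peak, 11 had more in NPCs than in either ESC list and 5 had fewer, to be read against the same shares of all genes. Rbms3, which lies in a window of 1157 kb, had 0, 7 and 23, and Myof had 5, 4 and 10. Lats2, Ptpn14 and Ajuba (Jub in this annotation) stand in both the upstream and the target lists.

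For genes with 10 or more peaks in all, the gene with the most similar counts over the 9 lists was found as the one with the smallest sum of absolute differences. Wwtr1 was closest to Lrig1, which differed by 4 peaks in all and had 1, 4 and 18 CHD4 peaks. Tead1 was closest to Slc22a23 and Zmiz1, both at a sum of 9, with 3, 12 and 12 and with 3, 9 and 13 CHD4 peaks. Tead2 was closest to Zfp280b (sum 3), Tead3 to Ksr2 (sum 4) and Tead4 to Cldn13 (sum 7). For Amotl2, 4 genes tied and are not named. Counts from one list share its length and chromosome spread.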

How the data were processed

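The authors mapped reads to mm9 with BWA, kept uniquely mapped, non-duplicate reads and called peaks for each sample against input, with SAMtools and MACS2 2.0 per the submitters' processing notes. Each deposited peak carries a −log10 value given by the authors, and whether it stems from a p or a q value is not stated. Equal-read normalisation is named in the peak names of 7 lists (MBD3, CHD4 and ZFP296). Of the series, 27 of 36 samples were not analysed here. Groups and replicate numbers came from sample titles, and each list has 1 sample.

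Midpoints were counted within 50 kb of gene bodies. Genes were taken from GENCODE vM1, and sequences from the mm9 reference, where 0 peaks of chromosomes 1 to 19, X and Y lay beyond a chromosome end; 117 peaks of other contigs were left out of gene counts. Shares carry 95% Clopper-Pearson intervals. The sequence of 1 peak at Ctgf is not reported here. Named were all 10 genes with their counts, their highest peaks per factor and cell type, peaks within 1 kb of a start, the closest genes by counts, and the 2 genes of each pathway list with most NPC CHD4 peaks; not every peak under this rule is printed, and other peaks named were chosen after their values were seen. The genes, lists and strings were chosen with earlier results of these data known. Counting, overlap and string search were tested on simulated data. Alternatives were windows of 10 and 100 kb, distance to start sites, nearest gene only, peak values of at least 10, lists of equal length, omission of chromosomes 3 and 6, single lists, overlap by midpoints within 500 bp, and other string windows. Intervals came from scipy 1.17.1, sequences from samtools 1.23.1 with pyfaidx 0.9.0.4, figures from matplotlib 3.10.9, and all else from Python 3.11.15 with numpy 2.4.6.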

Additional observations from a re-analysis of the deposited data

How the results depend on the processing

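Of 95 alternative values of 11 results, 73 stayed within 1.5 times the reported count (or, for the AP-1 share, within its interval) and 22 did not. NPC CHD4 peaks near the genes fell from 58 to 36 with a 10 kb window, 30 with values of at least 10, 37 with lists of equal length and 29 without Wwtr1, Cyr61 and Tead4 on chromosomes 3 and 6. ESC CHD4 sites fell from 23 to 15 with a 10 kb window, 15 with the nearest gene only, 9 with values of at least 10 and 11 without chromosomes 3 and 6, and members with such a site from 8 to 4 and 5 under the last 2. Single ESC lists in place of sites gave 34 to 72 CHD4 peaks, 9 to 12 of them on an NPC peak, 7 to 18 MBD3 peaks and 28 to 35 SIN3A peaks. The lower ends come from ESC replicate 1 and the SIN3A list with spike-in. Against ESC CHD4 replicate 1 alone, 6 genes had more NPC CHD4 peaks, and against replicate 2 alone, 4. With values of at least 10, NPC MBD3 peaks were 3, ESC MBD3 sites 2, ESC CHD4 sites on an NPC peak 3 and SIN3A sites 7. Without chromosomes 3 and 6, ESC MBD3 sites were 2, ESC CHD4 sites on an NPC peak 3 and genes with more NPC CHD4 peaks 2, down from 4. These alternatives hold fewer genes, bases or peaks by construction. The AP-1 share ranged from 12.8% to 29.3%. The upper end came from the central 500 bp, where the share of the whole NPC CHD4 list was 50.8%. ZFP296 has 1 list, so equal length was not applicable. By gene, Wwtr1 and Ankrd1 had more NPC CHD4 peaks than either ESC list under all of 10 kb, 100 kb, nearest gene, values of at least 10 and equal length, and Tead4 fewer. Exceptions were Cyr61 at 10 kb (1, 2 and 1), Tead1 (1, 3 and 3) and Tead2 (0, 4 and 0) at values of at least 10, Ctgf at values of at least 10 (0, 1 and 1) and at equal length (2, 1 and 1), and Tead3 under each of these 5 settings. The order of Yap1 changed with the setting. Its NPC CHD4 count was below both ESC lists at 100 kb (4, 5 and 3). It was above both at values of at least 10 and at equal length (0, 0 and 1 each). For MBD3, the lower NPC count of Tead2 was lost with the nearest gene only (0, 1 and 0). At values of at least 10 it was lost for Tead2 (0, 1 and 0) and Tead3 (0, 0 and 0). The higher NPC MBD3 count of Wwtr1 was also lost at values of at least 10 (0, 0 and 0). That of Yap1 was lost at 100 kb (1, 1 and 1). The MBD3 ties of Tead1 and Tead3 at equal length are given above. No paired analysis was possible because ESCs and NPCs share fewer than 2 replicate numbers.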

Other observations

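The SOX2 string CCATTGT and the octamer ATGCAAAT, known from the binding of pluripotency factors, were also counted in the central 200 bp of peaks near the 10 genes. The SOX2 string was found in 5 of 34 ESC CHD4 peaks of replicate 1 (14.7%, 95% exact interval 4.95% to 31.1%, 3.77% in the whole list), in 5 of 72 of replicate 2 (6.94%, interval 2.29% to 15.5%, 3.28%) and in 2 of 58 in NPCs (3.45%, interval 0.420% to 11.9%, 3.75%). Tead2 held 2 of the 5 in replicate 1 and 3 of the 5 in replicate 2. The octamer was found in 2 of 34 (5.88%), 2 of 72 (2.78%) and 2 of 58 (3.45%) CHD4 peaks, against 2.62%, 2.41% and 0.816% of the whole lists. In each ESC CHD4 list these were the Cyr61 peak 1.6 kb upstream and the intronic Tead1 region that was also an NPC CHD4 peak, and both held the SOX2 string as well. The Tead1 peak held the AP-1 string too in ESC replicate 2 and in NPCs. In NPCs the other octamer was in a peak upstream of Wwtr1. The TEAD string was found in 7 of 14 NPC CHD4 peaks that overlapped an ESC CHD4 peak and in 8 of 44 that did not, against 10.1% and 16.9% in the whole NPC list. None of these differences was tested.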
